A study of Rattus norvegicus with 6 samples.

Results

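The genes described here are 9 of the Nrf2 pathway, the 2 regulators Nfe2l2 and Keap1 and the 7 target genes Nqo1, Hmox1, Gclc, Gclm, Txnrd1, Srxn1 and Slc7a11, out of 12340 genes with a symbol in the table. They were chosen by name, and all 9 had a row. Each had 1 RefSeq transcript in the table, so summing over transcripts changed none of their values. The tissue was colonic epithelium, its inner layer, taken from adult Wistar males (6 in all), and each had lost the pineal gland, the source of the nightly melatonin in blood. The 3 vehicle animals (numbered 1 to 3) were injected intraperitoneally with 2.5% ethanol in PBS and the 3 melatonin animals (numbered 4 to 6) with melatonin at 1 mg/kg, both as subjective night began, 4 h before the tissue was collected. Each library is 1 animal, and no animal with a pineal gland was compared here.

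Nrf2, the protein of Nfe2l2, is a transcription factor held at a low level by Keap1, which presents it to a cullin 3 ubiquitin ligase for destruction. Oxidants and electrophiles modify cysteines of Keap1, Nrf2 then accumulates, pairs with a small Maf protein and binds antioxidant response elements near genes for glutathione synthesis, thioredoxin reduction, quinone reduction and heme breakdown. This control acts mainly on the Nrf2 protein, which RNA sequencing does not measure, so the target genes are the usual readout at the RNA level. The colonic epithelium meets dietary electrophiles and bacterial products, and Nrf2 targets are part of its defence. Melatonin is known as a scavenger of oxidants, which is background to asking about these genes.

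The element has a core of TGACNNNGC or TGAGNNNGC, where N is any base. Both forms were searched on both strands in RefSeq windows (build GRCr8) that run from 250 bases before to 50 bases after an annotated start of transcription. 8 of the 9 genes had a window, Txnrd1 had 2, and Hmox1 had none in the sequence table. 4 of the 8 genes held at least 1 match: Nfe2l2, Gclm, Txnrd1 and Srxn1. Over all 33465 windows of this length, TGACNNNGC was found in 12.1%, TGAGNNNGC in 17.2% and either in 27.1%, so a match is common. Over the 10463 windows of genes measured here, either was found in 31.1%. Counted by window, 4 of the 9 windows of the members held a match. Sequence outside the windows was not searched, so a gene without a match here may still have an element elsewhere. The 3 windows below are shown because they have a match that begins upstream of the start. Matches are in capitals, other bases in lower case, and each is written 5′ to 3′ along the gene.
Srxn1, chr3:161064562-161064861, plus strand: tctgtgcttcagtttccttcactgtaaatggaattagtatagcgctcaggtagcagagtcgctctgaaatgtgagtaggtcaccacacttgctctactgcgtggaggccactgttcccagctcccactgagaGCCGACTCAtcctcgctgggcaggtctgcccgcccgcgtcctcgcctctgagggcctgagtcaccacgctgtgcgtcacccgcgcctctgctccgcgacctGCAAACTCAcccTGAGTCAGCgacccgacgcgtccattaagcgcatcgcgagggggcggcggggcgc
Gclm, chr2:213031885-213032184, plus strand: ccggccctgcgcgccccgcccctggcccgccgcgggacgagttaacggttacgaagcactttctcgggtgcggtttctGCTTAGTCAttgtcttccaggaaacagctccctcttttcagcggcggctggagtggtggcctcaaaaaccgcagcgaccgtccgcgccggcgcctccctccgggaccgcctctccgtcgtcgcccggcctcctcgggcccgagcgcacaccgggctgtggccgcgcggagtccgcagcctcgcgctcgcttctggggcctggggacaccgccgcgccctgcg
Txnrd1, second window, chr7:22755855-22756154, minus strand: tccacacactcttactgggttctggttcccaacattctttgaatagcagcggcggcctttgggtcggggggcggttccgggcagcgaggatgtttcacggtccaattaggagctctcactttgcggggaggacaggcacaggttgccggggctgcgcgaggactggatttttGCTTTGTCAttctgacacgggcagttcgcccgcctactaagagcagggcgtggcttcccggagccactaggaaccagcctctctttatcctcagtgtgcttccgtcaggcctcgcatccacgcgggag

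The Srxn1 window held 3 matches of TGAGNNNGC, which begin at positions -118, -17 and -5 from the start. None was of the first form, TGACNNNGC, and the second form was added after the first had been fixed. Windows with 2 or more matches of either form made up 4.38% of all windows. That share was not computed over the windows of genes measured here. The match at -5 reads TGAGTCAGC and contains TGAGTCA, which is also the binding letters of the AP-1 family, so the motifs overlap there. The Gclm match begins at -172 and reads TGACTAAGC on the opposite strand. The match in the second Txnrd1 window begins at -78 and reads TGACAAAGC on the opposite strand. The Nfe2l2 match, TGACGCCGC, begins at 39 bases, inside the transcribed part. These are matches of letters, and binding was not measured.

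**Figure D1:**
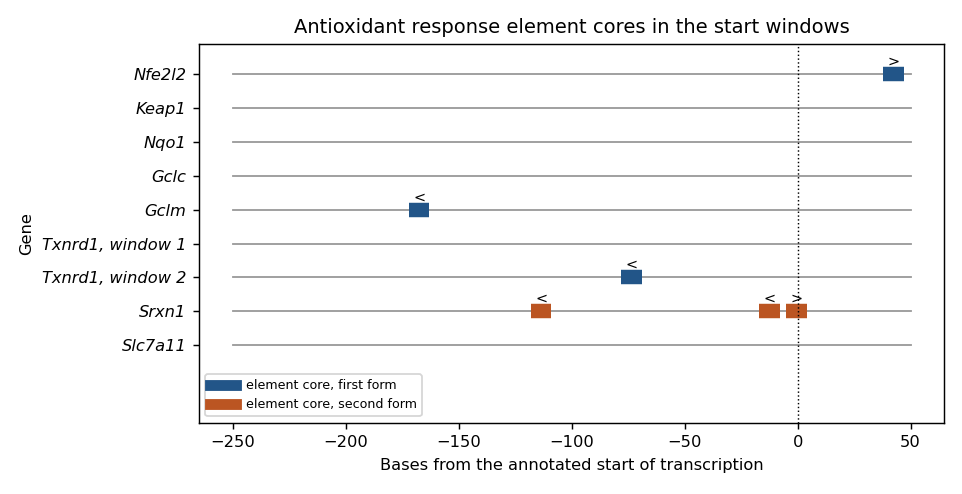
Matches of the 2 forms of the element core in the start windows of 8 genes (Txnrd1 has 2 windows). The x axis is the distance in bases from the annotated start (dotted line), arrows give the strand of the match relative to the gene, and the first form is TGACNNNGC and the second TGAGNNNGC; Srxn1 has 3 matches and Nfe2l2, Gclm and the second Txnrd1 window 1 each.

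Values below are FPKM, fragment counts scaled for transcript length and library size, so levels can be compared between genes. The depth of a library, judged by the smallest steps its FPKM values take, was an estimated 3370000 to 3660000 fragments. The scrape carried the marks of its label: all 11 colonocyte markers were measured, with a summed level of 12324 to 12992 FPKM after vehicle and 11879 to 13782 after melatonin. Markers of goblet cells, which also belong to the epithelium, were high too. Of 6 listed, 5 were measured, and they summed to 7864 to 10013 FPKM after vehicle and 7728 to 9013 after melatonin. Markers of macrophages and dendritic cells summed to 27.3 to 35.4 FPKM after vehicle and 29.3 to 52.0 after melatonin over 10 measured markers, of which Adgre1 and Itgam lay at or below 0.35 in every animal. Markers of T and NK cells summed to 4.18 to 13.1 and 7.76 to 26.1, those of smooth muscle and fibroblasts to 12.4 to 15.3 and 11.3 to 17.3, those of endothelium to 2.26 to 4.24 and 2.63 to 4.91, and those of red blood cells to 84.8 to 129 and 54.7 to 96.4. A list of 16 interferon-stimulated genes was taken because earlier results of these data showed it to differ among the melatonin animals. This difference was thus known beforehand. The genes summed to 414 and 518 FPKM in melatonin animals 5 and 6 and to 139 to 158 in the other 4 animals. All but Mx1 and Mx2 were higher in both animals than in each of the other 4.

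The question was whether these genes differ between melatonin and vehicle. No difference passed the test. With limma on log2(FPKM + 1), 0 of the 8 members that passed the filter (a mean of at least 1 FPKM) were called at an adjusted p under 0.05, beside 0% of the 10137 features tested. Before adjustment, 0 of the 8 had p under 0.05, beside 3.75% of all features (380). The 3 melatonin animals lay wholly above or wholly below the 3 vehicle animals for 0 of the 9 genes, beside 8.38% of all features. The median log2 difference of the 8 was 0.02, with 4 positive and 4 negative, and that of all features was -0.02. With 3 animals against 3, an exact two-sided permutation test of 1 gene cannot go below p = 0.1. In whole tissue, fewer cells of a type and less RNA per cell cannot be told apart.

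**Figure D2:**
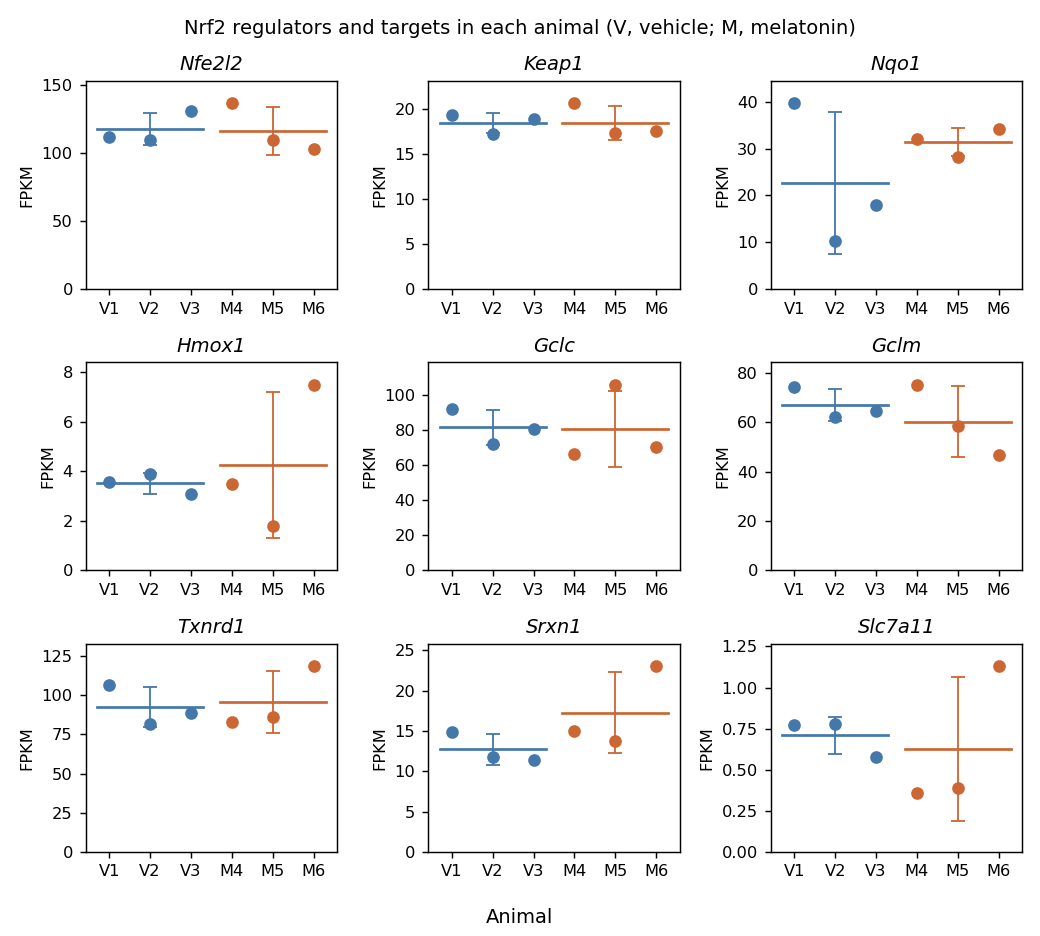
FPKM of the 9 genes in each animal (V1 to V3, vehicle; M4 to M6, melatonin); lines are group means and bars the SD over 3 animals, and each y axis starts at 0. In every panel the groups overlap, Nqo1 is widely spread after vehicle (10.34 to 39.67), and animal 6 is highest for Txnrd1, Srxn1, Hmox1 and Slc7a11.

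In the vehicle animals the 9 genes spanned from 0.710 to 117 FPKM. Nfe2l2 had the highest mean, followed by Txnrd1, Gclc and Gclm, then Nqo1, Keap1 and Srxn1, then Hmox1 and last Slc7a11. Over all 6 animals the ranges of neighbours in this order overlapped from Nfe2l2 down to Gclm and from Nqo1 down to Srxn1. They did not overlap between Gclm (lowest 46.50) and Nqo1 (highest 39.67), between Srxn1 (lowest 11.42) and Hmox1 (highest 7.49), or between Hmox1 (lowest 1.78) and Slc7a11 (highest 1.13). The 2 subunits of the glutathione enzyme and the thioredoxin reductase thus stood above the quinone reductase and the inducible heme oxygenase in every animal.

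The regulators differed little between the groups. Nfe2l2 was listed at 111.82, 109.21 and 130.47 FPKM in vehicle animals 1, 2 and 3 and at 136.22, 109.28 and 102.92 in melatonin animals 4, 5 and 6. The melatonin animals included both the highest and the lowest value, and the groups overlapped. The log2 difference was -0.02 ± 0.13 (SE), with a 95% interval of -0.32 to 0.28 (limma adjusted p = 0.992). Keap1, the adaptor that binds Nrf2, was listed at 19.31, 17.16 and 18.89 and at 20.62, 17.27 and 17.49. Its means were 18.5 ± 1.14 and 18.5 ± 1.87 FPKM (SD, n = 3 each), with an interval of the log2 difference of -0.30 to 0.29 (limma adjusted p = 0.998). The sign of these differences near 0 depended on the scaling: with median-of-ratios scaling they were 0.00 for Nfe2l2 and 0.02 for Keap1.

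Nfe2l2 stood above Keap1 by a ratio of 5.79, 6.36 and 6.91 after vehicle and 6.61, 6.33 and 5.88 after melatonin. The ratio overlapped between the groups. The residual SD of Keap1 on the log2 scale, 0.11, was larger than that of 15.5% of the 4116 tested features within 2-fold of its level, whereas Nfe2l2, at 0.18, exceeded 67.7% of 1305 such features. Of the 7 other tested members, Keap1 had the deviations over the 6 animals nearest to those of Nfe2l2 (root mean square difference 0.09 on the log2 scale). Keap1 ranked only 220 among the 10136 other tested features by this measure. The genes nearest to Nfe2l2 among the 10136 other tested features were B4gat1 (0.03), Bltp3b (0.04) and Snx17 (0.04), by the same measure over 6 animals. B4gat1 was listed at 4.46, 4.39 and 5.23 FPKM after vehicle and 5.60, 4.44 and 3.87 after melatonin.

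Nqo1, the NAD(P)H quinone reductase that is a standard Nrf2 readout, was the most variable member for its level. It was listed at 39.67, 10.34 and 18.00 FPKM after vehicle and at 31.94, 28.14 and 34.20 after melatonin. All 3 melatonin animals lay above vehicle animals 2 and 3 and below vehicle animal 1, so the groups overlapped. The coefficient of variation was 67.1% after vehicle and 9.74% after melatonin. A test of that difference in spread was not run. The means were 22.7 ± 15.2 and 31.4 ± 3.06 (SD, n = 3 each), and the log2 difference was 0.65 ± 0.39 with a 95% interval of -0.25 to 1.55 (limma adjusted p = 0.972). Without vehicle animal 1 it was 1.14 and without vehicle animal 2 it was 0.22, neither past the threshold (limma adjusted p = 0.909 and 0.999). The residual SD of Nqo1, 0.66, exceeded that of 98.3% of the 3821 tested features within 2-fold of its level. An estimated 49.9 reads lay behind the lowest value and 207 behind the highest.

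Hmox1, the inducible enzyme that breaks down heme, was low. It was listed at 3.57, 3.90 and 3.07 FPKM after vehicle and at 3.48, 1.78 and 7.49 after melatonin, an estimated 10.1 to 42.2 reads per library. The vehicle animals lay close together, and melatonin animals 5 and 6 lay on either side of them. The log2 difference was 0.07 ± 0.38, with an interval of -0.80 to 0.94 (limma adjusted p = 0.990). Without melatonin animal 6 its sign turned to -0.35, and without vehicle animal 3 it was -0.00. Hmox2, the constitutive heme oxygenase, was listed at 50.70, 49.09 and 55.81 and at 43.14, 51.96 and 47.26, which made it 6.31 to 29.2 times as abundant as Hmox1 in an animal. Macrophages can be rich in Hmox1. Their markers summed to 29.3 FPKM in animal 6, inside the vehicle range, but single markers differed there. Mrc1 was at 10.74 FPKM in animal 6 and at 0.72 to 2.29 in the other 5 animals, whereas the complement genes C1qa, C1qb and C1qc were lowest in animal 6, at 2.82, 3.30 and 2.72 against 4.88 to 10.35 over the 3 genes in the other 5. Their part in the Hmox1 value was not tested.

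Gclc and Gclm encode the catalytic and the modifier subunit of glutamate-cysteine ligase, the rate-limiting enzyme of glutathione synthesis. Gclc was listed at 91.74, 71.82 and 80.76 FPKM after vehicle and at 66.17, 105.72 and 70.05 after melatonin. Its highest and lowest values both came from melatonin animals. The log2 difference was -0.04 ± 0.18 with an interval of -0.46 to 0.38 (limma adjusted p = 0.988), and its sign turned without vehicle animal 1, melatonin animal 4 or melatonin animal 6 (0.05, 0.09 and 0.05). Gclm was listed at 74.18, 62.06 and 64.54 and at 75.08, 58.54 and 46.50. Animal 4 lay above and animals 5 and 6 below every vehicle animal. The log2 difference was -0.18 ± 0.17, with an interval of -0.57 to 0.22 (limma adjusted p = 0.972), and it was -0.01 without melatonin animal 6.

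The 2 subunits kept a narrow ratio after vehicle and a wide one after melatonin. Gclc over Gclm was 1.24, 1.16 and 1.25 in the vehicle animals and 0.881, 1.81 and 1.51 in animals 4, 5 and 6. Animal 4 lay below and animals 5 and 6 above the vehicle range, so there was no shift in 1 direction. The means were 1.22 ± 0.0506 and 1.40 ± 0.472 (SD, n = 3 each), and the difference in spread was not tested.

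Slc7a11, the cystine carrier of system xc- that supplies cysteine for glutathione, had the lowest level of the members. It was listed at 0.77, 0.78 and 0.58 FPKM after vehicle and at 0.36, 0.39 and 1.13 after melatonin, an estimated 11.3 to 36.3 reads on a long transcript. Animals 4 and 5 lay below and animal 6 above all vehicle animals. Its mean did not reach the filter, so it was tested only in the fit without a filter, where the log2 difference was -0.10 ± 0.20, with an interval of -0.57 to 0.37 (limma adjusted p = 0.963). Its heavy chain Slc3a2, which also serves other amino acid carriers, stood at 29.4 ± 2.12 and 31.5 ± 6.53 FPKM (SD, n = 3 each), 24.2 to 108 times the level of Slc7a11 in an animal.

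Txnrd1, the cytosolic selenoprotein that reduces thioredoxin, was listed at 106.41, 81.78 and 88.86 FPKM after vehicle and at 82.73, 86.32 and 118.58 after melatonin. Animals 4 and 5 lay inside the vehicle range and animal 6 above it. The log2 difference was 0.04 ± 0.16, with an interval of -0.32 to 0.41 (limma adjusted p = 0.984), and its sign turned without melatonin animal 6 (-0.12) or vehicle animal 2 (-0.04). Its substrate Txn1 was more abundant, at 1104.44, 684.23 and 933.90 and at 429.67, 851.88 and 1036.26 FPKM. Animal 4 had the lowest Txn1 of the 6, and Txnrd1 over Txn1 was 0.193 there against 0.0951 to 0.120 in the other 5.

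Srxn1, sulfiredoxin, which repairs overoxidised peroxiredoxins, had the smallest unadjusted p of the members. It was listed at 14.91, 11.81 and 11.42 FPKM after vehicle and at 15.02, 13.78 and 23.04 after melatonin. Animal 6 lay highest, animal 4 just above vehicle animal 1, and animal 5 inside the vehicle range. The means were 12.7 ± 1.91 and 17.3 ± 5.03 (SD, n = 3 each), and the log2 difference was 0.39 ± 0.21, with an interval of -0.09 to 0.87 (limma unadjusted p = 0.0973, adjusted p = 0.972). Without melatonin animal 6 it was 0.18, and it stayed positive in each of the 13 alternatives run.

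**Figure D3:**
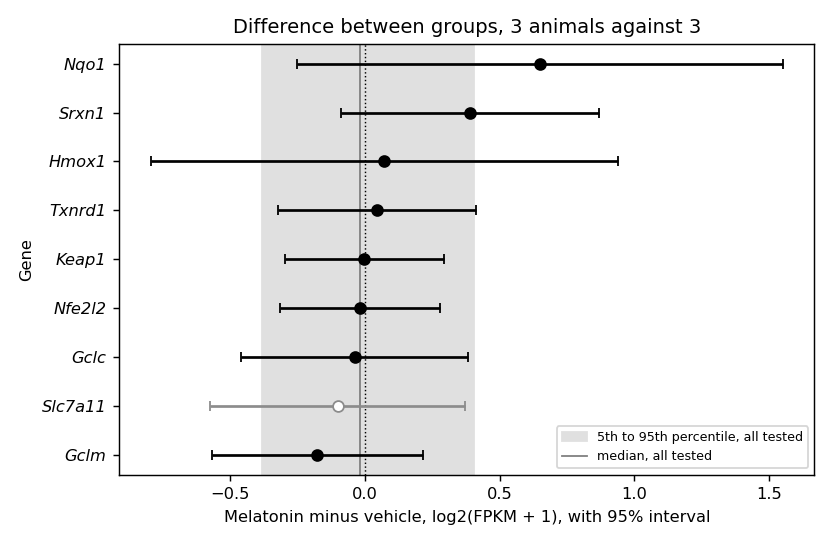
Log2 difference, melatonin minus vehicle (values as log2(FPKM + 1)), for each gene with its 95% interval from limma; the open grey point (Slc7a11) comes from the fit without a filter, the grey band spans the 5th to 95th percentile of all tested features and the grey line is their median. All 9 intervals include 0, and the widest belong to Nqo1 (-0.25 to 1.55) and Hmox1 (-0.80 to 0.94).

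The members did not move as 1 block within an animal. Melatonin animal 6 had the highest value for 4 of the 9 (Hmox1, Txnrd1, Srxn1 and Slc7a11) and the lowest for 2 (Nfe2l2 and Gclm). Srxn1 over Gclm was therefore 0.495 in animal 6 and 0.177 to 0.235 in the other 5. Animal 4 had the highest value for Nfe2l2, Keap1 and Gclm and the lowest for Gclc and Slc7a11. Vehicle animal 1 had no lowest value and was above the vehicle mean for 8 of the 9 genes. Taken over the 9 genes, the median deviation from the vehicle mean (log2 scale) was 0.15, -0.10 and -0.05 in vehicle animals 1, 2 and 3 and 0.15, -0.09 and 0.32 in animals 4, 5 and 6. The 0.32 of animal 6 is the value of Slc7a11, and over the 8 tested members the median there was 0.15. Animal 6 also held the lowest value for 33.3% of all tested features and the highest for 14.3%, against 10.6% to 14.5% lowest in each of the other 5. The summed markers of T and NK cells were highest in animal 6 too (26.1 FPKM). Of the single markers, Cd3e, Cd3d, Cd8a, Gzmb and Klrd1 were highest there, whereas Cd3g, Cd8b, Cd4, Nkg7 and Cd2 were not. The part of T and NK cells in the values of the 9 genes was not tested. The interferon-stimulated genes were high in animals 5 and 6. In these 2 animals Gclm lay below and Gclc over Gclm above all vehicle animals. Hmox1 and Slc7a11 lay below the vehicle animals in animal 5 and above them in animal 6. In each of animals 5 and 6, 3 of the 9 genes lay below all vehicle animals, beside 26.7% and 41.0% of all tested features. Above all vehicle animals lay 1 and 4 of the 9, beside 26.1% and 21.4%. The part of the interferon-stimulated genes in these values was not tested.

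**Figure D4:**
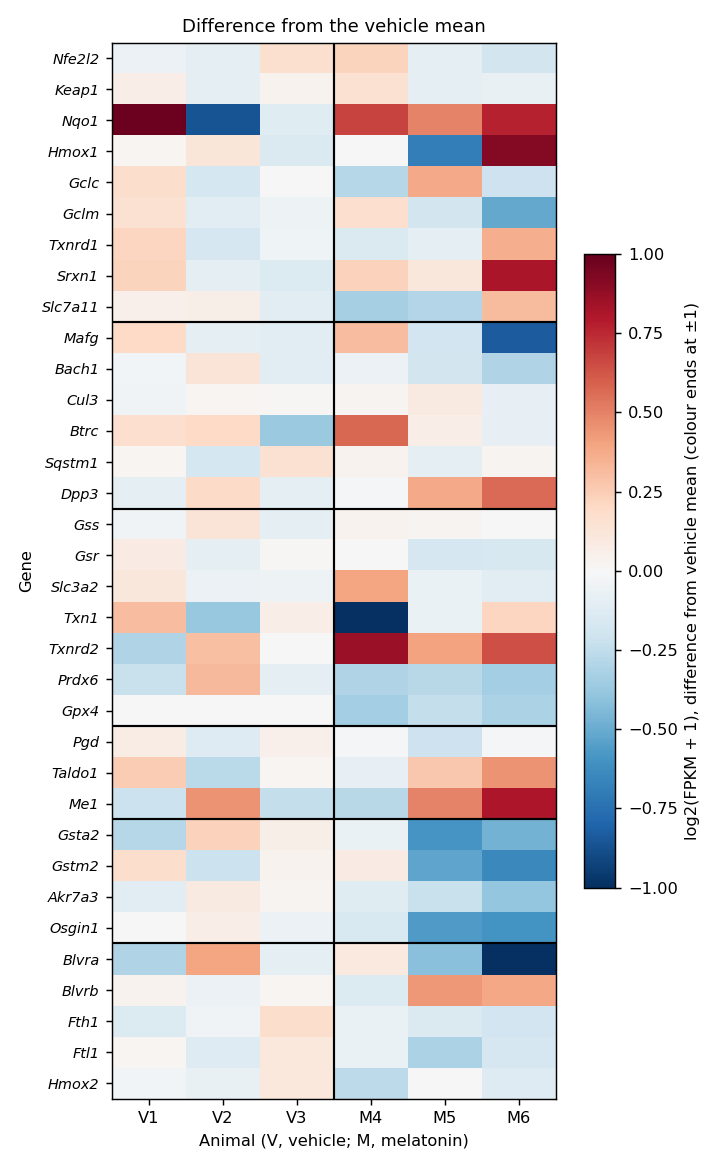
Difference of each animal from the vehicle mean on the log2(FPKM + 1) scale (colour, ends at ±1) for the 9 genes (top block) and the named genes of 5 other lists (blocks below, in the order partners and turnover, glutathione and thioredoxin, NADPH, detoxification and efflux, heme and iron). Animal 6 (M6) is high for Nqo1, Hmox1 and Srxn1 and low for Gclm, Mafg and Blvra; Gpx4 is below the vehicle mean in all 3 melatonin animals.

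5 further lists of the pathway were described by their counts. For the partners and turnover of Nrf2, 15 of 16 genes were measured and 14 tested, 0 of them called, with 5 positive and 9 negative and a median log2 difference of -0.03 (all features, -0.02). Bach1, the repressor that competes with Nrf2 for its elements, stood at 16.5 ± 1.45 FPKM after vehicle and 14.4 ± 1.30 after melatonin (SD, n = 3 each). The small Maf gene Mafg was listed at 15.35, 12.37 and 12.17 and at 16.63, 11.46 and 6.97, with animal 6 lowest. Cul3, the scaffold of the ligase, stood at 30.6 ± 0.656 and 30.9 ± 1.86, and Sqstm1, the autophagy receptor that binds Keap1, at 195 ± 22.5 and 193 ± 9.90. Dpp3, a peptidase that also binds Keap1, stood at 60.8 ± 7.38 and 76.2 ± 15.2 (limma adjusted p = 0.972), and Btrc, of a second ligase for Nrf2, at 3.86 ± 1.01 and 4.54 ± 1.38.

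Among the glutathione and thioredoxin partners, 16 of 16 were measured and 14 tested, with 0 called, 8 positive and 6 negative and a median of 0.02. Groups did not overlap for 3 of the 14 (21.4%, beside 8.38% of all features). Gpx4, the peroxidase of lipid hydroperoxides, was summed over 2 transcripts and stood at 146 ± 0.665 FPKM after vehicle and 119 ± 4.66 after melatonin, with no melatonin animal as high as any vehicle animal (log2 difference -0.30 ± 0.08, limma unadjusted p = 0.00678, adjusted p = 0.972). Prdx6 was listed at 342.14, 499.56 and 373.42 and at 323.47, 329.86 and 314.72, also without overlap. Txnrd2, the mitochondrial counterpart of Txnrd1, lay the other way at 3.82 ± 0.991 and 6.44 ± 1.18 (log2 difference 0.64 ± 0.22, limma adjusted p = 0.972). Gsr and Gss, which regenerate and complete glutathione, stood at 131 ± 8.29 and 121 ± 8.01 and at 54.3 ± 4.42 and 55.0 ± 0.774.

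All 6 genes of the list named NADPH enzymes were tested, 0 were called, and 5 were positive and 1 negative. Their median was 0.17, or 0.051 without vehicle animal 2 and 0.26 without vehicle animal 1. The list includes Taldo1 and Tkt, which do not form NADPH themselves. Its median lies between their log2 differences, 0.21 and 0.12. Taldo1, of the pentose phosphate pathway, stood at 197 ± 35.5 FPKM after vehicle and 229 ± 41.9 after melatonin (SD, n = 3 each), malic enzyme Me1 at 12.9 ± 4.02 and 17.0 ± 6.37, and Pgd at 120 ± 8.99 and 114 ± 8.87.

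Of the detoxification and efflux targets, 24 of 24 were measured and 21 tested, 0 were called, 5 were positive and 16 negative, and the median was -0.17, or -0.064 without melatonin animal 6 and -0.081 without vehicle animal 3. Groups did not overlap for 2 of the 21 (9.52%), near the 8.38% of all features. Those were Osgin1, an oxidative stress response gene, at 34.34, 36.14 and 33.01 and at 31.00, 22.92 and 22.38 FPKM (log2 difference -0.44 ± 0.14, limma adjusted p = 0.972), and the aldehyde reductase Akr7a3, at 242 ± 17.7 and 204 ± 18.8. The glutathione transferases Gsta2 and Gstm2 stood at 12.8 ± 2.41 and 9.62 ± 2.08 and at 146 ± 19.8 and 115 ± 33.2. Members of these families have close copies, so their reads are not certain to be their own. In animals 4, 5 and 6, 2, 10 and 14 of the 21 lay below all vehicle animals, which is 9.52%, 47.6% and 66.7%, against 17.6%, 26.7% and 41.0% of all features in the same animals.

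Of the list named heme and iron targets, 9 of 10 genes were measured and tested, 0 were called, and 2 were positive and 7 negative. The median was -0.13, or -0.047 without vehicle animal 3, -0.062 without melatonin animal 4 and -0.059 without melatonin animal 6. The -0.13 is the value of Hmox2, the constitutive heme oxygenase, so the list is not of induced targets alone. The ferritin chains Fth1 and Ftl1, which store iron freed from heme, stood at 7472 ± 848 and 6779 ± 288 FPKM and at 4350 ± 356 and 3835 ± 337. Blvra and Blvrb, the biliverdin reductases, stood at 3.62 ± 1.19 and 2.43 ± 1.38 and at 13.1 ± 0.491 and 15.8 ± 3.43. The groups overlapped for each of these 4 genes.

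**Figure D5:**
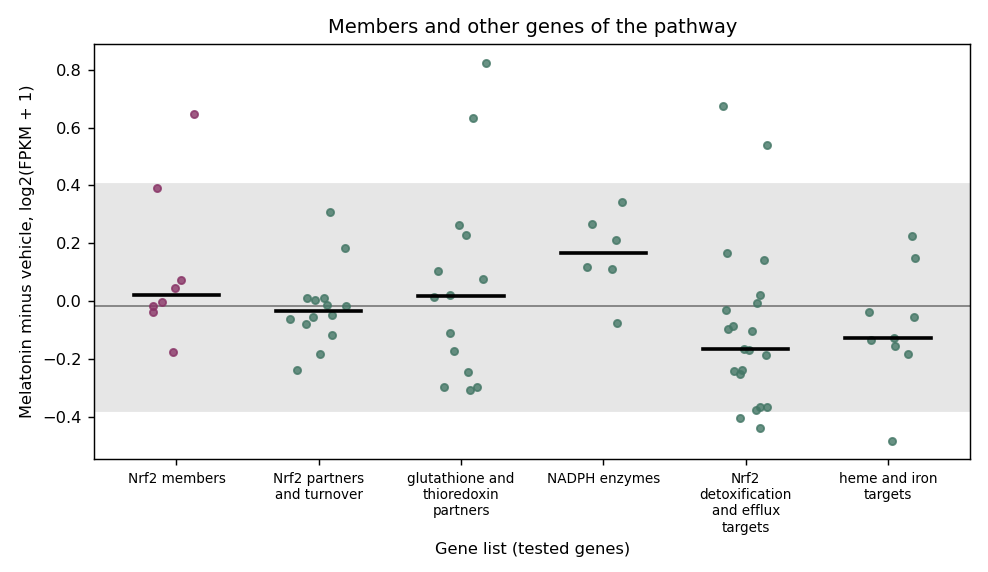
Log2 difference, melatonin minus vehicle (values as log2(FPKM + 1)), for each tested gene of 6 lists (points, spread sideways at random), with list medians as black bars, the 5th to 95th percentile of all tested features as a grey band and their median as a grey line. The medians run from -0.17 (detoxification and efflux) to 0.17 (NADPH enzymes), values that single animals move to -0.064 and 0.051, and no gene in any list passed the test.

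In the authors' deposited table the log2 ratio of the group means, taken on FPKM without an added constant, was 0.47 for Nqo1, 0.44 for Srxn1, 0.27 for Hmox1 and 0.05 for Txnrd1. It was 0.00 for Keap1, -0.01 for both Nfe2l2 and Gclc, -0.16 for Gclm and -0.18 for Slc7a11.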

How the data were processed

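Libraries were made from oligo(dT)-selected RNA with random hexamer priming, per the labels' protocols, and no strand marking is described there. The authors deposited FPKM values per RefSeq transcript and animal, per the file headers, with the log2 ratio of group means and a score headed as a probability, whose tool is not given in the sources used here and which was not used. Per the submitters' processing notes the build was rn6 and the tools RSEM, Bowtie2 and BWA 0.7.10-r789, with no roles given.

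Transcripts were matched by accession to RefSeq symbols (GRCr8 annotation, names and start windows only), 12883 of 13647 matched, and transcripts of a gene were summed, giving 13104 features. FPKM values were not rescaled. Features with a mean of at least 1 FPKM (10137) entered limma 3.58.1 (R 4.3.3) on log2(FPKM + 1), all 6 animals, with a mean trend, two-sided, Benjamini-Hochberg adjusted over all features, threshold 0.05. This scale understates changes of low genes. Depth was estimated from short transcripts: with 49 bases taken off each length, 87.4% to 94.3% of low values lay within 0.1 of a whole read. Estimated reads rest on this depth, and RSEM can divide reads between transcripts. The procedure was tested on simulated data with noise drawn separately for each gene and animal, without patterns shared within an animal. No result above rests on that run.

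The 9 members, the lists, the tests and the rule for named genes were chosen with earlier results of these data known. The rule took all members, the 4 tested genes with the smallest p from each of the 5 other lists, the partners Slc3a2, Txn1, Bach1, Cul3, Sqstm1, Gsr, Gss and Hmox2, and the 3 genes nearest to Nfe2l2. A few genes it takes are not reported here. Mrc1 was named after its values were seen. The second form of the element core was added after the first had been fixed.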

Additional observations from a re-analysis of the deposited data

How the results depend on the processing

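No member was called under any of the alternatives run: a pseudocount of 0.1, 2 other filters, 2 other scalings, unsummed transcripts, no mean trend, and leaving out each animal. The number of genes called higher, 0, ranged from 0 to 4 when an animal was left out (3 without vehicle animal 1, 4 without melatonin animal 4), and the number called lower stayed at 0 there. The number called lower was 1 without a filter and 1 without a mean trend. Nqo1, Srxn1 and Gclm kept their sign throughout, with ranges over the left-out animals of 0.22 to 1.14, 0.18 to 0.53 and -0.35 to -0.01. The sign turned for Gclc (-0.25 to 0.086 over the left-out animals), Hmox1 (-0.35 to 0.45), Keap1 (-0.080 to 0.041), Nfe2l2 (-0.14 to 0.062) and Txnrd1 (-0.12 to 0.15). It also turned with median-of-ratios scaling for Keap1 (0.017) and Nfe2l2 (0.0015), and with upper-quartile scaling for Keap1 (0.0067). The median of the glutathione and thioredoxin list moved to 0.038 with median-of-ratios scaling and from -0.025 to 0.041 over the left-out animals, that of the heme and iron list from -0.15 to -0.047, of the NADPH enzymes from 0.051 to 0.26 and of the detoxification and efflux targets from -0.21 to -0.064. The median of the 8 tested members ran from -0.045 to 0.098 and that of the partners and turnover list from -0.065 to -0.0028. Beyond the smaller number of animals, the cause was not tested. Slc7a11 reached a fit only without a filter. No paired analysis was possible because vehicle and melatonin animals share no replicate number. Depth limits Hmox1 and Slc7a11, at an estimated 10.1 to 42.2 and 11.3 to 36.3 reads per library.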

Other observations

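Gpx2, the gastrointestinal glutathione peroxidase and a known Nrf2 target, was picked out after its values were seen. It was listed at 589.02, 173.29 and 234.92 FPKM in vehicle animals 1, 2 and 3 and at 170.65, 575.35 and 1360.94 in melatonin animals 4, 5 and 6. Animal 6 was highest, as it was for Srxn1, Txnrd1, Hmox1 and Slc7a11, and vehicle animal 1 was second, as it was for Txnrd1. Other genes went the other way in animal 6, which was lowest for Nfe2l2 and Gclm. It was also lowest for 11 of the 21 tested detoxification and efflux targets, beside 33.3% of all tested features. Animal 4, at the low end for Gpx2, lay above vehicle animals 2 and 3 for Nqo1, at 31.94. The log2 difference of Gpx2 was 0.82 ± 0.71 (limma adjusted p = 0.972).

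2 pathway genes have a minor second transcript that lay lower in each melatonin animal, also picked out after the values were seen. The shorter Sqstm1 transcript was listed at 11.62, 6.72 and 11.91 FPKM after vehicle and at 5.66, 4.41 and 3.23 after melatonin, while the main Sqstm1 transcript was listed at 185.89, 165.17 and 204.74 and at 193.54, 177.02 and 194.65. The minor Gpx4 transcript was listed at 6.18, 7.54 and 11.86 and at 3.74, 1.44 and 2.94. The main Gpx4 transcript also lay lower in each melatonin animal, at 139.52, 138.22 and 135.02 and at 111.39, 122.61 and 114.32. How reads were divided between the transcripts of these genes is uncertain.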
